A study of Mus musculus with 31 samples.

Results

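The islet hormones are the peptides that the endocrine cells of the pancreas secrete. Their genes, Ins1, Ins2, Gcg, Sst, Ppy, Pyy, Iapp and Ghrl, were taken by symbol from both expression tables of a mouse pancreas study, and all 8 were found among the 38283 genes that each table lists. RNA had been sequenced from pancreatic cells of C57BL/6 mice, taken on postnatal day 2 and sorted into a YFP-positive mesenchymal fraction and a YFP-negative non-mesenchymal fraction. The study compared mice in which mesenchymal Igf2 was deleted, or raised through deletion of the H19DMD control region, with littermate controls. Ins2 stands beside Igf2 on chromosome 7, and Ins1 lies on another chromosome.

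Beta cells secrete insulin together with islet amyloid polypeptide, alpha cells secrete glucagon, delta cells somatostatin, PP cells pancreatic polypeptide and epsilon cells ghrelin. All of them arise from the pancreatic epithelium through progenitors that express Neurog3, and in the newborn animal they are still gathering into islets. The prohormones are cut by convertases in the secretory granule, and the finished peptides act on receptors that are for the most part coupled to G proteins, the insulin receptor being a tyrosine kinase. Mesenchyme lies around this epithelium and supplies growth factors to it, among them the product of Igf2.

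In the Igf2 model, controls were Igf2+/+; Nkx3.2Cre/+ (4 non-mesenchymal libraries) and mutants Igf2+/fl; Nkx3.2Cre/+ (3 non-mesenchymal libraries). In the H19DMD model, controls were H19DMD+/+; Nkx3.2+/Cre (3 libraries of each fraction) and mutants H19DMDfl/+; Nkx3.2+/Cre (4 libraries of each fraction). Every group, controls included, thus carried Nkx3.2-Cre, which recombines in the mesenchyme of the pancreas and of neighbouring organs. By this design the cells that make hormones are not the cells in which the allele was deleted, and the non-mesenchymal fraction held them together with acinar, ductal, blood and other cells. Not analysed here were mesenchymal libraries of the Igf2 model and control 4 of each H19DMD fraction. The labels do not say whether the libraries of a group came from separate animals, so p-values measure the spread between these libraries, which may be technical.

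Values were FPKM, fragments scaled to transcript length and to the mapped fragments of the library, a scale per length on which genes of 1 library can be compared. Absolute depth is not given, and was only estimated, from the step between FPKM values. The score of that estimate varied between libraries, from 36.5 to 357. Relative depth, by this estimate, differed at most 2.60-fold among the Igf2 table's 7 libraries and 2.08-fold among the H19DMD table's 14. Per library 17476 to 20918 genes were above 0. The 12 mesenchymal markers summed to 5769 to 7442 FPKM in mesenchymal libraries and to 164 to 460 FPKM in non-mesenchymal ones. Igf2 in the mesenchymal H19DMD libraries was 6162 to 7923 FPKM in mutants and 3648 to 4024 FPKM in controls, and H19 was 565 to 835 and 2437 to 2454 FPKM. H19 was called lower in those mutants (log2 difference -1.82 ± 0.19 SE, limma adjusted p = 0.0458), and Igf2 was not called (0.87 ± 0.21 SE, limma adjusted p = 0.927). Both tables were normalised separately, so no value was tested across them.

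The 2 insulin genes are near copies, which bears on whether reads of 50 bases can be assigned to one of them. The ends of their coding sequences are shown to let the differences be seen, from the GENCODE M21 annotation of GRCm38, 5′ to 3′ to the stop codon (bases 34 to 327 of Ins1 and 34 to 333 of Ins2). Capitals mark bases at which the aligned sequences differ, or that have no partner in the other gene.
Ins1: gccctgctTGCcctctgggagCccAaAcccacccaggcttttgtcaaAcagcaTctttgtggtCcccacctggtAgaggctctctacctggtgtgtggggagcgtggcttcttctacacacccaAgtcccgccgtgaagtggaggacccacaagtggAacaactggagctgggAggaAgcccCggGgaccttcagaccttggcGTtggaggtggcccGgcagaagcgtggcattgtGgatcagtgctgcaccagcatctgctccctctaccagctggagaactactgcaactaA
Ins2: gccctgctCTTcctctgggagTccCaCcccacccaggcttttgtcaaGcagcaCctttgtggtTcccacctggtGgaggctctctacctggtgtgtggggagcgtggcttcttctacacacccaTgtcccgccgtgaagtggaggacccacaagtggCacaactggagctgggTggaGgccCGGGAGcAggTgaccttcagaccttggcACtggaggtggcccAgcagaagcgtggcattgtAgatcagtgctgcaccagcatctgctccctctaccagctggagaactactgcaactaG
Over the whole coding sequences, 302 of 327 aligned bases were identical (92.4%), 6 bases of Ins2 had no partner, and the longest identical run was 56 bases. Over all annotated transcripts, 7 of the 1013 words of 50 bases in Ins1 (0.691%) also occurred in Ins2, where they were 7 of 1504 (0.465%). A read of full length could therefore be placed in either gene from few positions. None of the other 6 hormones shared a word of that length with another gene.

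Upstream sequences from RefSeq (GRCm38.p6) matched 7 of the 8 hormones, Ins1, Gcg, Sst, Ppy, Pyy, Iapp and Ghrl. Those of Ins1, Gcg and Sst, the hormones of beta, alpha and delta cells, are shown because in the H19DMD model the differences between genotypes in Ins1 and Gcg were of similar size and that in Sst was near 0. Each line holds the 250 bases before the start, and capitals mark matches on either strand to TAAT (the core of homeodomain sites), GCCATCTG (an E box known from rodent insulin promoters), TGACGTCA (the cyclic AMP response element) or TATAAA.
Ins1, chr19:52264047-52264296, plus strand: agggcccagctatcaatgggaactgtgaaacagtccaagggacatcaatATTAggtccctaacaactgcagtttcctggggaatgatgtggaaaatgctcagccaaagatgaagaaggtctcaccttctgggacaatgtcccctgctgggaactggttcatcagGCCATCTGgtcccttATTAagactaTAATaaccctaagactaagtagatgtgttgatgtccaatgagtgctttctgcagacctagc
Gcg, chr2:62483654-62483903, minus strand: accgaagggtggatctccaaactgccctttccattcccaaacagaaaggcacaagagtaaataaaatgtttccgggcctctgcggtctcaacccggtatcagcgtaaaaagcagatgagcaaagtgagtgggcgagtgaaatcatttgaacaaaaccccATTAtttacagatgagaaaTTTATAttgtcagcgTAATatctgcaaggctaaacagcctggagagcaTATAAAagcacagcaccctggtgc
Sst, chr16:23890845-23891094, minus strand: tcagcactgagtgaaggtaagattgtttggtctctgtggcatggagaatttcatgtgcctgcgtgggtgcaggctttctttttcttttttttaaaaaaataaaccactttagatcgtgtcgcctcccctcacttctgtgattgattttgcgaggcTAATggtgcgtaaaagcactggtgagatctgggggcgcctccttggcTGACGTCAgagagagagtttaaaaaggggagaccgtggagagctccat
The Sst window held 1 match to TGACGTCA, which occurred in 1.55% of 32851 mouse windows of the same length, and the Ins1 window held 1 match to GCCATCTG, which occurred in 1.11%. TAAT was common, with a match in 54.9% of windows, and was found 3 times in Ins1, 2 times in Gcg, 1 time in Sst and 5 times in Iapp. TATAAA was found 2 times in Gcg and 1 time in Ppy, and in 12.4% of all windows. Within the 3 windows shown, no match overlapped another. These are matches of letters, not measured sites.

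All 8 hormones were abundant in non-mesenchymal cells and scarce in mesenchymal ones. Their summed level was 9369 to 14323 FPKM in controls and 13532 to 24986 FPKM in mutants of the Igf2 model, 21353 to 32061 and 13273 to 22634 FPKM in the H19DMD model, and 42.7 to 254 FPKM in the 7 mesenchymal libraries. Ins2 had the highest mean in each of the 6 groups. It lost that place in the Igf2 model controls without control library 2, and in the mesenchymal mutants without mutant library 2. Most neighbours in the order of means overlapped in their ranges. In the H19DMD model Ins2, Gcg and Ins1 formed a top group whose ranges lay above those of the other 5 hormones in both genotypes of non-mesenchymal cells. In the Igf2 model Pyy stood among the top 3, and the lowest mean was that of Iapp.

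**Figure D1:**
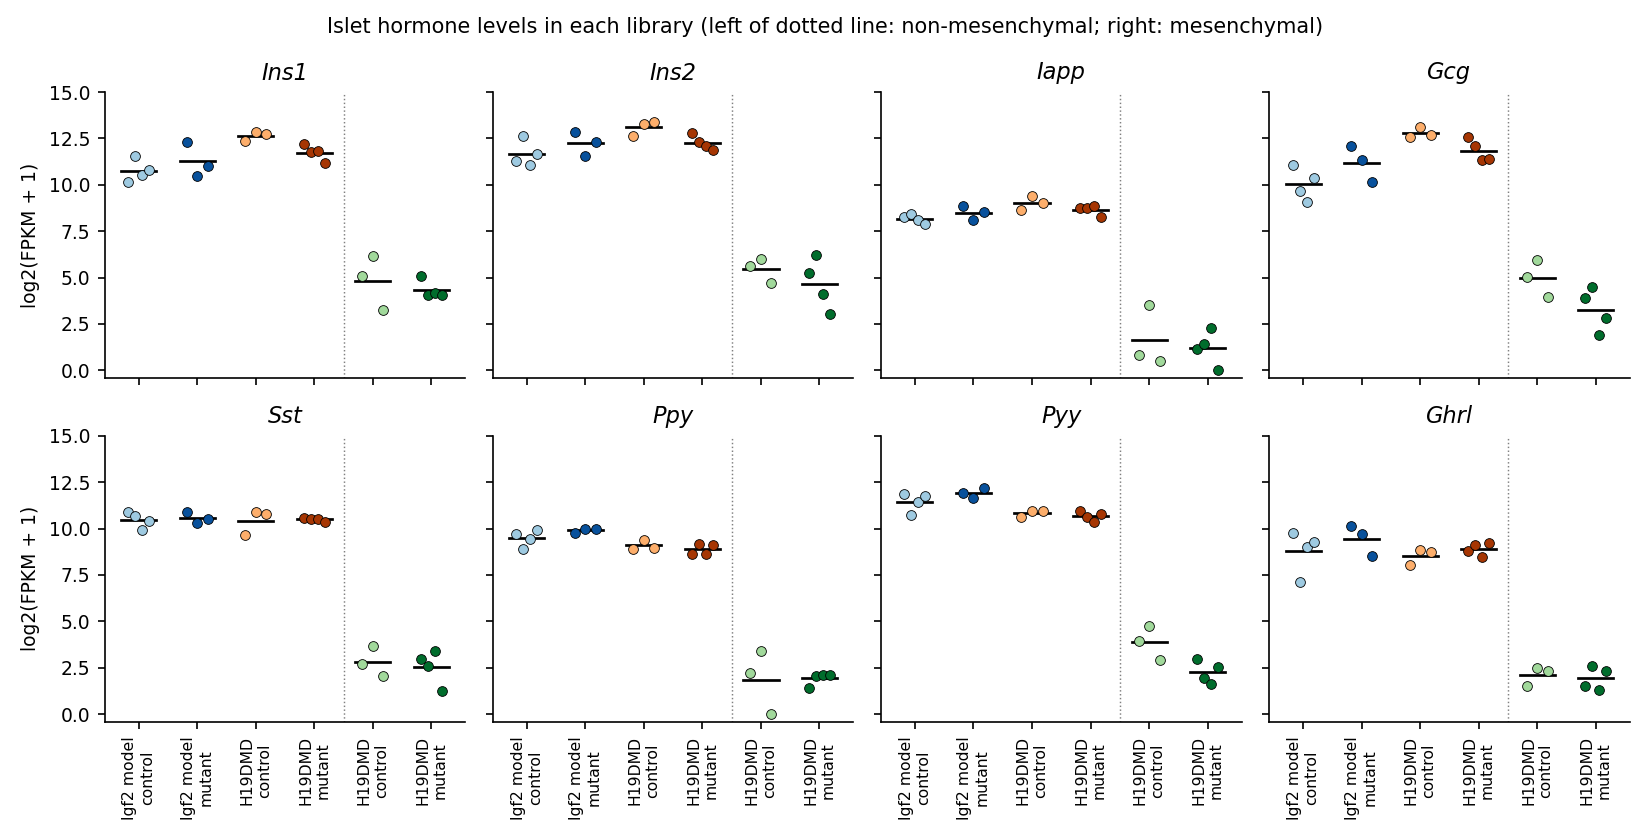
Levels of the 8 hormones as log2(FPKM + 1) in each of 21 libraries (points), by group, with the group mean (line). The non-mesenchymal libraries lie far above the mesenchymal ones for each hormone, and in the H19DMD model the non-mesenchymal mutants lie lower than controls for Ins1 and Gcg without overlap.

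The make-up of the summed hormone signal varied between libraries of 1 group. In the Igf2 model controls Ins2 made up 18.5 to 43.4% of it and Pyy 12.05 to 29.8%. Control library 2 had the highest insulin shares there (Ins2 43.4%, Ins1 20.9%) and the lowest Ghrl share (0.947%). Among non-mesenchymal H19DMD libraries Sst made up 3.79 to 5.93% in controls and 6.78 to 10.2% in mutants, Pyy 6.13 to 7.32% and 8.84 to 13.2%, and Ghrl 1.20 to 1.44% and 1.95 to 4.52%. For these 3 of 8 hormones the shares of the groups did not overlap, mutants being higher, but shares in a library add up to a whole. The levels of all 3 overlapped. No base rate over all genes was made for such shares in either model, so nothing is read from their lack of overlap. The log2 differences in level were 0.06 for Sst, -0.16 for Pyy and 0.38 for Ghrl, and -0.91, -0.86 and -0.96 for Ins1, Ins2 and Gcg, and none of the 6 was called. The Sst share in the Igf2 model was 10.2 to 14.1% in controls and 7.55 to 9.47% in mutants, also without overlap, mutants being lower. The hormones together held 5.73 to 7.17% of the FPKM of protein-coding genes in non-mesenchymal H19DMD controls and 3.17 to 5.53% in mutants. In the Igf2 model they held 2.34 to 3.25% in controls and 2.55 to 4.78% in mutants.

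**Figure D2:**
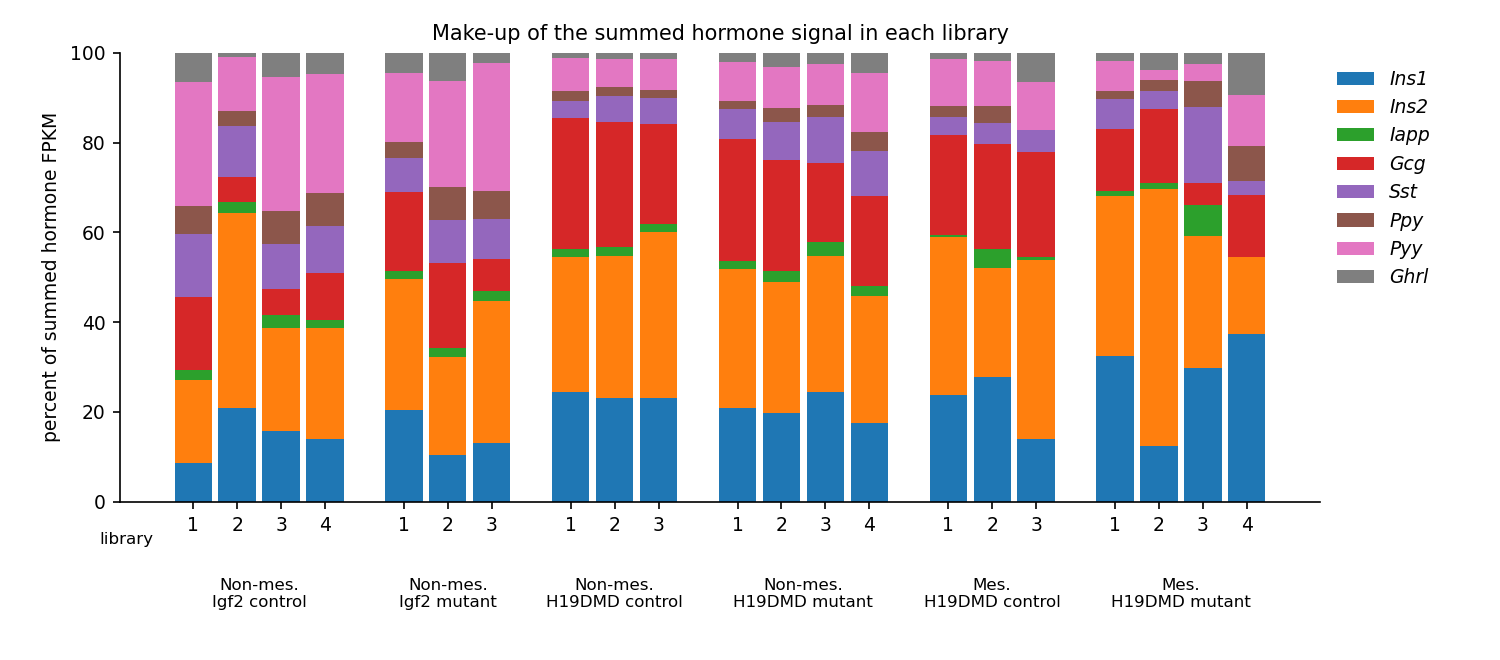
Share of each hormone in the summed hormone FPKM (percent) for each library, grouped by fraction, model and genotype. Ins1, Ins2 and Gcg fill most of each bar in the H19DMD model, and Pyy takes 12.05 to 29.8% in the Igf2 model controls.

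Across the 2 mutant comparisons of non-mesenchymal cells no hormone passed the test. With limma (moderated linear models on log2(FPKM + 1), Benjamini-Hochberg adjustment over all genes tested, threshold 0.05), 0 of 8 hormones were called in the Igf2 model, where 0.0631% of 17441 genes were called. In the H19DMD model 0 of 8 were called, where 0.0677% of 16239 genes were. At an unadjusted limma p under 0.05 there were 0 hormones in the Igf2 model (921 of all genes) and 3 in the H19DMD model, Ins1, Ins2 and Gcg (868 of all genes). Mutant levels lay below control levels with no overlap for 2 of 8 hormones in the H19DMD model, Ins1 and Gcg, and for 2.2% of all genes. In either direction 5.68% of all genes had no overlap there. The Igf2 model had 0 of 8 hormones with no overlap in either direction, and 6.02% of its genes. The median hormone difference, mutant minus control, was 0.48 on the log2 scale in the Igf2 model, where the median of all genes was -0.03. It was -0.29 in the H19DMD model, where the median of all genes was 0.05. All 8 estimates in the Igf2 model were above 0 as deposited. With protein-coding genes scaled to their total 7 of 8 were, Sst being below, and the medians were 0.18 for the hormones and -0.30 for all genes tested. These are bulk samples, so fewer cells of a type and less RNA per cell cannot be told apart.

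**Figure D3:**
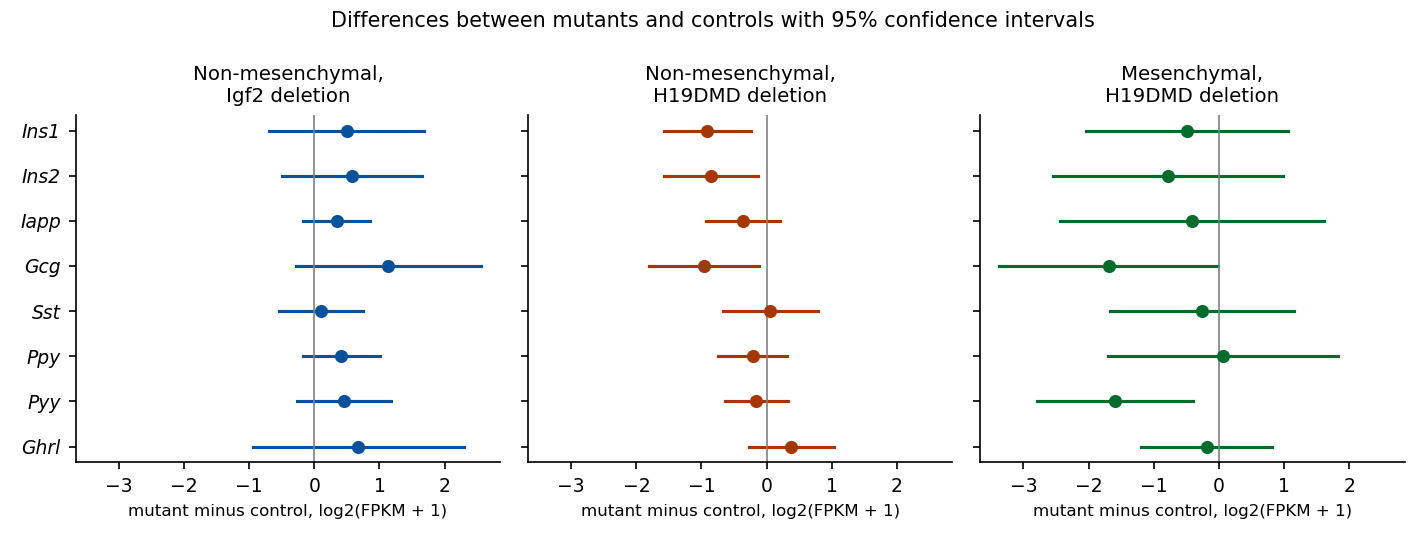
Difference between mutant and control means on the log2(FPKM + 1) scale for each hormone (points) with the 95% confidence interval from limma, not adjusted for multiple testing, in 3 comparisons. In non-mesenchymal cells of the H19DMD model the intervals of Ins1, Ins2 and Gcg lie below 0, and in those of the Igf2 model every interval spans 0.

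Ins1 encodes one of the 2 mouse insulins and is a retroposed copy of the other (chromosome 19, 52264297 to 52265476, plus strand, GRCm38). In non-mesenchymal cells of the H19DMD model it was 4732, 3446, 3554 and 2331 FPKM in mutant libraries 1 to 4 and 5231, 7424 and 6775 FPKM in control libraries 1 to 3. Every mutant library lay below every control library. The means were 3516 ± 982 (SD, n = 4) and 6477 ± 1127 (SD, n = 3), 1.84-fold lower in mutants. The log2 difference was -0.91 ± 0.29 (SE), with a 95% interval of -1.58 to -0.24 and a limma adjusted p of 0.892. The estimate ran from -1.07 to -0.73 when any 1 library was left out. Ins1 in the Igf2 model was 5113, 1400 and 2088 FPKM in mutants and 1148, 3000, 1483 and 1805 FPKM in controls. Mutant library 1 was the highest of the 7, and the other mutants lay within the control range. The log2 difference was 0.50 ± 0.50 (SE; limma adjusted p = 0.919), and without mutant library 1 it was near 0, at -0.03.

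Ins2, the ancestral insulin gene (chromosome 7, 142678656 to 142743381, minus strand), was 6991, 5056, 4387 and 3738 FPKM in H19DMD mutants and 6416, 10095 and 10819 FPKM in controls. Mutant library 1 lay above control library 1, so the groups overlapped. The difference was -0.86 ± 0.31 (SE), with a 95% interval of -1.58 to -0.13, and did not pass the test (limma adjusted p = 0.892). Ins2 in the Igf2 model was 7288, 2964 and 5110 FPKM in mutants and 2483, 6217, 2137 and 3217 FPKM in controls. These groups overlapped as well, and the log2 difference was 0.58 ± 0.46 (SE), with an interval of -0.49 to 1.65 and a range of 0.28 to 0.93 when any 1 library was left out.

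Iapp encodes islet amyloid polypeptide, which beta cells release with insulin (chromosome 6, 142298423 to 142303961, plus strand). It lies within the span of Slco1a5 on the opposite strand, and the use of strand in counting is not given in the sources used here, so reads of both genes there may not be separable. Iapp was 433, 433, 458 and 310 FPKM in H19DMD mutants and 391, 684 and 520 FPKM in controls. It was 460, 279 and 365 FPKM in Igf2 model mutants and 304, 338, 273 and 233 FPKM in controls. Groups overlapped in both models, with log2 differences of -0.36 ± 0.24 and 0.34 ± 0.22 (SE; limma adjusted p = 0.894 and 0.919).

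Gcg encodes proglucagon, the source of glucagon in alpha cells and of incretins in the gut (chromosome 2, 62474530 to 62483650, minus strand). In the H19DMD model it was 6112, 4289, 2577 and 2669 FPKM in mutants and 6206, 8888 and 6556 FPKM in controls. Mutants lay below controls without overlap, mutant library 1 by a small margin. The means were 3912 ± 1664 (SD, n = 4) and 7217 ± 1458 (SD, n = 3), 1.84-fold lower in mutants. The log2 difference was -0.96 ± 0.36 (SE), with an interval of -1.80 to -0.12 and a limma adjusted p of 0.892. Gcg in the Igf2 model was 4386, 2553 and 1127 FPKM in mutants and 2157, 812, 536 and 1337 FPKM in controls. It had the highest estimate of the 8 hormones there, 1.14 ± 0.60 (SE), but mutant library 3 lay within the control range and the interval ran from -0.29 to 2.56. Leaving out any 1 library gave 0.68 to 1.66.

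Sst encodes somatostatin, which delta cells release to restrain insulin and glucagon secretion (chromosome 16, 23889573 to 23890958, minus strand). It was 1534, 1441, 1486 and 1307 FPKM in H19DMD mutants and 810, 1874 and 1738 FPKM in controls. It was 1886, 1281 and 1442 FPKM in Igf2 model mutants and 1893, 1613, 953 and 1354 FPKM in controls. Its group means were 1442 FPKM in mutants and 1474 FPKM in controls of the H19DMD model, where control library 1 was low at 810 FPKM. In the Igf2 model they were 1537 and 1453 FPKM. The log2 differences were 0.06 ± 0.31 in the H19DMD model and 0.11 ± 0.27 in the Igf2 model (SE), with intervals of -0.66 to 0.78 and -0.54 to 0.75. The sign of the first turned to -0.00633 with median-ratio scaling, and that of the second to -0.19 when protein-coding genes were scaled to their total.

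Ppy (chromosome 11, 102099930 to 102101319, minus strand) and Pyy (chromosome 11, 102106676 to 102107832, minus strand) encode pancreatic polypeptide and peptide YY, related peptides whose genes stand 5356 bases apart. Pyy is known from many fetal endocrine cells of the pancreas and from the gut. Pyy was 2000, 1564, 1324 and 1755 FPKM in H19DMD mutants and 1563, 1965 and 1997 FPKM in controls. It was, in the Igf2 model, 3843, 3209 and 4595 FPKM in mutants and 3696, 1726, 2790 and 3437 FPKM in controls. Ppy was 391 to 575 FPKM in H19DMD mutants and 479 to 677 FPKM in controls, and 864 to 1008 and 482 to 958 FPKM in the Igf2 model. Both genes overlapped between genotypes in both models. The log2 differences in the H19DMD model were -0.16 ± 0.21 for Pyy and -0.21 ± 0.23 for Ppy (SE). Those in the Igf2 model were 0.46 ± 0.30 for Pyy and 0.41 ± 0.25 for Ppy (SE).

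Ghrl encodes ghrelin, made by the epsilon cells that are frequent in the pancreas around birth and by the stomach (chromosome 6, 113716119 to 113719880, minus strand). Its span overlaps the annotated features Gm26982 and Gm44033. Ghrl was 440, 554, 351 and 600 FPKM in H19DMD mutants and 257, 454 and 422 FPKM in controls. It was the hormone with the highest estimate in that comparison, 0.38 ± 0.28 (SE), with an interval of -0.28 to 1.03 and overlapping groups, and it ran from 0.12 to 0.53 when any 1 library was left out. Igf2 model libraries held 1146, 837 and 360 FPKM in mutants and 872, 136, 510 and 614 FPKM in controls. Control library 2, the one rich in insulin, held the lowest value. The log2 difference was 0.68 ± 0.69 (SE), and leaving out any 1 library gave 0.11 to 1.16.

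Ratios between hormones within a library depend little on how the library was scaled. Of the 28 pairs of hormones, 9 had ratios that did not overlap between H19DMD mutants and controls in non-mesenchymal cells, and 0 did in the Igf2 model. All 9 were lower in mutants with the hormone listed earlier as numerator, and all would be higher if turned around. They were Ins1 and Ins2 each relative to Sst, Pyy and Ghrl, Gcg relative to Pyy and Ghrl, and Ppy relative to Ghrl. The mean log2 ratio of Ins1 to Ghrl was 2.84 in mutants (1.95 to 3.42) and 4.12 in controls (4.003 to 4.34), and that of Ins1 to Sst 1.24 (0.83 to 1.62) and 2.21 (1.96 to 2.69). That of Gcg to Ghrl was 2.94 (2.15 to 3.79) in mutants and 4.28 (3.96 to 4.59) in controls. Pairs that share a hormone are not independent, and no test was made of these counts. Among levels of single genes, 5.68% had no overlap in either direction, which is another quantity and no base rate for such ratios.

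Ins2 relative to Ins1 compares the insulin gene beside Igf2 with the one elsewhere. Igf2 and Ins2 share the minus strand of chromosome 7, with 11839 bases between the annotated spans (Igf2 from 142650766 to 142666816). In non-mesenchymal cells of the H19DMD model the FPKM of Ins2 was 1.48, 1.47, 1.23 and 1.60 times that of Ins1 in mutants 1 to 4 and 1.23, 1.36 and 1.60 times in controls 1 to 3. The ranges coincided almost fully, and the mean log2 ratios were 0.53 ± 0.16 (SD, n = 4) and 0.47 ± 0.19 (SD, n = 3; exact permutation test, two-sided, p = 0.629). The ratio in the Igf2 model was 1.43, 2.12 and 2.45 in mutants and 2.16, 2.07, 1.44 and 1.78 in controls, with mean log2 ratios of 0.96 ± 0.40 (SD, n = 3) and 0.88 ± 0.26 (SD, n = 4; exact permutation p = 0.714). Of 5 such comparisons, the other 3 involving mesenchymal cells, none passed (Benjamini-Hochberg adjusted p = 0.8 for each), and the smallest p that 4 against 3 libraries allow is 0.0286. A single comparison at that limit would have an adjusted p of 0.143, so none could pass alone, and the adjusted values say nothing about likeness of the groups.

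**Figure D4:**
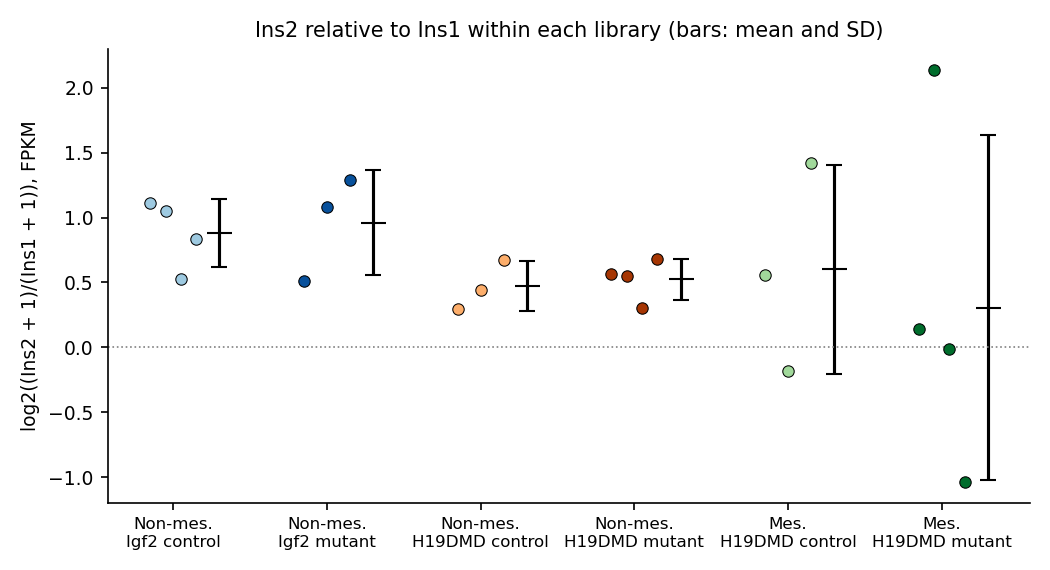
Log2 ratio of Ins2 to Ins1 (FPKM + 1) in each library (points), with mean and SD of each group (bars). In non-mesenchymal cells the ratio lies above 0 in all 14 libraries with overlapping groups, and in mesenchymal cells, where both genes are low, it spreads from -1.04 to 2.14.

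The level of Igf2 and that of Ins2 differed in where they were found. Mean Igf2 in the mesenchymal fraction was 3849 FPKM ± 189 (SD, n = 3) in H19DMD controls and 7040 ± 800 (SD, n = 4) in mutants, while Ins2 was 45.3 ± 18.8 and 33.5 ± 29.5. Igf2as, antisense to Igf2, was 2.36 to 3.96 FPKM in controls and 11.4 to 13.96 FPKM in mutants, and its reads may not be separable from those of Igf2. Ins2 in those cells was 49.1, 61.9 and 24.8 FPKM in controls and 36.5, 73.7, 16.6 and 7.26 FPKM in mutants. The mutants lay on both sides of the control range. Th, which encodes tyrosine hydroxylase on the other side of Ins2, was 0 to 0.462 FPKM in mesenchymal controls and listed at 0 in the mesenchymal mutants. In the non-mesenchymal H19DMD libraries Igf2 was 45.2 to 53.2 FPKM in controls and 45.4 to 157 FPKM in mutants, and Ins2 was 6416 to 10819 and 3738 to 6991 FPKM. Igf2 in the Igf2 model was 71.5 to 144 FPKM in controls and 24.97 to 147 FPKM in mutants, and Ins2 was 2137 to 6217 and 2964 to 7288 FPKM.

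Genes of hormone processing and granules were not called in any mutant comparison. Of 17 such genes, 15 were tested in non-mesenchymal cells, with 12 above 0 and 3 below in the Igf2 model (median log2 difference 0.21) and 3 above and 12 below in the H19DMD model (median -0.17). When protein-coding genes were scaled to their total, the Igf2 model had 4 above and 11 below 0 (median -0.08). Chgb, which encodes the granule protein secretogranin 1, had a log2 difference of -0.20 and -0.33 in the Igf2 and H19DMD models, and Cpe, carboxypeptidase E, 0.35 and 0.12. Chga, chromogranin A, had 0.22 in the Igf2 model, and Scg2, secretogranin 2, -0.20 in the H19DMD model.

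Of 20 hormone receptor genes, 8 were tested in non-mesenchymal cells of each model and 0 were called, with medians of 0.15 (Igf2 model) and -0.06 (H19DMD model). As deposited, 7 of the 8 Igf2 model estimates were above 0, and 2 of 8 when protein-coding genes were scaled to their total. Insr, the insulin receptor, had log2 differences of 0.24 and 0.38, Glp1r, the receptor for glucagon-like peptide, 0.09 and -0.38, and Ramp2, a partner of calcitonin family receptors, 0.11 and -0.87. Of 19 regulators of hormone genes, 18 and 16 were tested and 0 were called, with medians of -0.05 (7 above and 11 below 0, Igf2 model) and -0.29 (6 above and 10 below 0, H19DMD model). When protein-coding genes were scaled to their total, the Igf2 model median was -0.32 (6 above, 12 below). Nkx2-2, Pax6 and Hhex, the homeodomain factors with the highest levels of this list, had differences of 0.22, -0.03 and -0.52 in the Igf2 model and -0.11, 0.10 and 0.44 in the H19DMD model. The 0.44 of Hhex was the highest of the 16 there, and the estimates ran down to -1.05. Nkx6-1, Neurod1 and Pdx1, named after their values were seen, had -0.48, -0.38 and -0.35 in that model (limma unadjusted p = 0.0271, 0.0625 and 0.092). Of 14 other peptide hormones and endocrine products, 7 and 3 were tested and 0 were called, with 4 above and 3 below 0 in the Igf2 model and 1 above and 2 below in the H19DMD model. Gast, gastrin, had 2.45 (limma adjusted p = 0.893) and -0.55, and Tph1, which makes serotonin, 0.73 and 0.84. Tac1, the source of substance P, had -0.64 in the Igf2 model, and Ucn3, urocortin 3, had -0.49 in the H19DMD model.

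Markers of other cell types were set beside these results, and no gene of the lists was called in either model. In the Igf2 model the 16 acinar markers summed to 30473 to 44025 FPKM in controls and 89855 to 102501 FPKM in mutants, with no overlap. Of 14 tested, 13 were above 0 (median 1.22) and 12 had an unadjusted limma p under 0.05. Ctrb1, chymotrypsinogen, had 1.42 (limma adjusted p = 0.639). The 5 red cell markers were all below 0 in that model (median -0.52), 1 of 8 neural and glial markers was above 0 (median -0.29), 2 of 9 mesenchymal markers (median -0.10), 4 of 8 endothelial markers (median -0.05) and 3 of 8 ductal markers (median -0.18). With protein-coding genes scaled to their total, 0 of 8 neural and glial markers (median -0.53), 1 of 9 mesenchymal (-0.39), 2 of 8 endothelial (-0.26) and 0 of 8 ductal markers (-0.47) were above 0. The 8 leukocyte markers were all above 0 in that model as deposited (median 0.49), and 6 of 8 were when protein-coding genes were scaled to their total. In the H19DMD model 13 of 13 acinar markers were below 0 as deposited (median -0.24), and 11 of 13 with protein-coding scaling, while their sums overlapped at 40710 to 107685 FPKM in controls and 48145 to 67667 FPKM in mutants. The 5 red cell markers were above 0 there (median 1.48), with sums of 23.2 to 99.1 and 48.9 to 339 FPKM. The 8 ductal markers were above 0 as deposited (median 0.30) and 7 of 8 with median-ratio scaling, with sums of 893 to 1413 and 1005 to 1680 FPKM. Of 8 mesenchymal markers tested there, 7 were above 0 under each scaling (median 0.25 as deposited), with sums of 170 to 208 FPKM in controls and 164 to 296 FPKM in mutants. Leukocyte markers had 5 of 8 above 0 (median 0.06), endothelial markers 3 of 7 (median -0.05) and neural and glial markers 2 of 7 (median -0.05). The sign of each of these last medians turned under another scaling. Amy2a1 was listed at 0 in every library. The part of these in the hormone differences was not tested.

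Mesenchymal cells held little of any hormone. All 8 were called lower there than in non-mesenchymal cells by limma, in controls and in mutants of the H19DMD model. Of all genes, 10.3% were called lower in controls and 15.1% in mutants. In controls the log2 difference ran from -6.41 (Ghrl; limma adjusted p = 0.00018) to -7.84 (Gcg; limma adjusted p = 0.000292). In mutants it ran from -6.96 (Ppy) to -8.57 (Gcg; limma adjusted p = 1.68e-05). These ends are not a stable order. With any 1 library left out in controls, Ins1 reached -8.47 and Gcg went no lower than -8.32. The mesenchymal mean was 0.462 to 0.933% of the non-mesenchymal mean over the 8 hormones in controls (median 0.657%), and 0.251 to 0.665% in mutants (median 0.499%). Mesenchymal control library 2 carried much of the control value. Without it the 8 hormones stood at 0.114 to 0.785% (median 0.322%), with Iapp at 0.114 in place of 0.738% and Ins1 at 0.322 in place of 0.576%. In mutants the median ran from 0.415 to 0.561% when any 1 library was left out, and Ins2 went from 0.665 to 0.399% without mesenchymal mutant library 2. The order of the hormones in this measure also changed with the library left out, so none is named as lowest or highest. Acinar markers with a mean of at least 10 FPKM in non-mesenchymal cells stood at a median of 1.53% in controls (12 genes) and 1.72% in mutants (11 genes), and all 16 summed to 580 to 1829 FPKM in mesenchymal libraries. This minimum selects markers by the denominator of the measure, and the set kept differed between genotypes. By the same minimum, leukocyte markers stood at a median of 1.23% in controls (0 to 52.2%, 8 genes) and 1.45% in mutants (0 to 80.1%, 8 genes), and ductal markers at 3.74% (0 to 101%, 6 genes) and 4.79% (0.409 to 26.1%, 7 genes), so single genes of these sets lay within or below the range of the hormones. Among them were Spp1 (0.658 and 0.409%), Ptprc (0.809 and 0.360%) and Cd52 (0.382 and 0%), named after their values were seen. The acinar markers Ptf1a and Amy2a5 were listed at 0 in all 7 mesenchymal libraries, but they averaged only 2.46 and 0.34 FPKM in the non-mesenchymal H19DMD libraries, so nothing is read from these zeros. What share of this signal came from other cells in the sort was not tested.

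**Figure D5:**
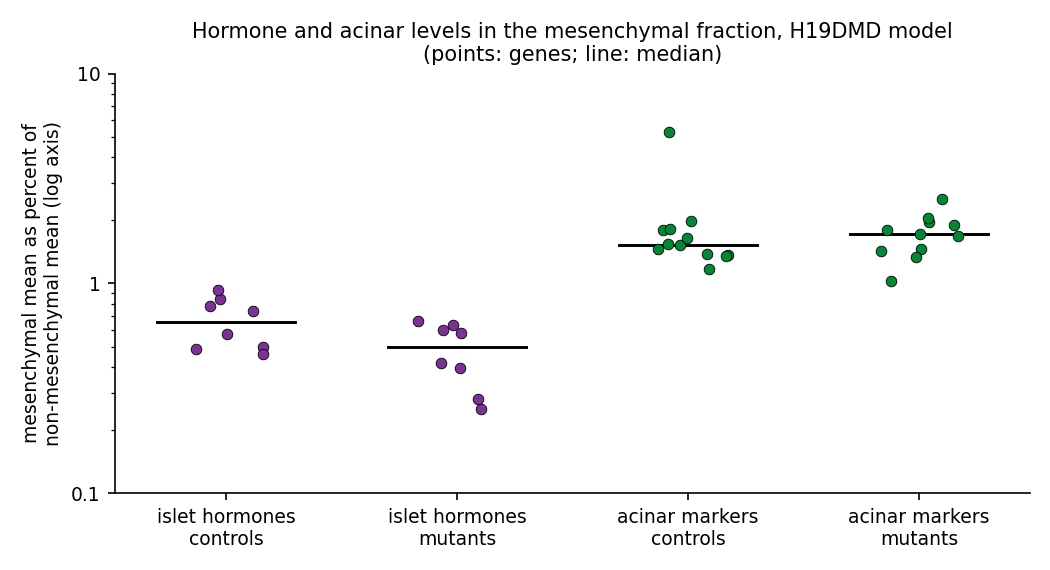
Mean level in mesenchymal libraries as percent of the mean in non-mesenchymal libraries of the same genotype (log axis), for the 8 hormones and for acinar markers (points), with the median of each set (line). Acinar markers are those with a mean of at least 10 FPKM in non-mesenchymal cells. The hormones lie between 0.251 and 0.933%, and the acinar markers at or above 1.02%.

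Most tested genes of hormone processing and most tested regulators were also lower in mesenchymal cells in this contrast. Of 15 tested genes of hormone processing and granules, 12 were called lower and 1 higher in mesenchymal cells by limma in controls, and 12 and 1 in mutants, beside the 10.3% and 15.1% of all genes called lower. Chgb fell by 6.90 on the log2 scale in controls (limma adjusted p = 0.000148), whereas Cpe, which many cell types express, was 0.09 apart (limma adjusted p = 0.791). Of the regulators of hormone genes, 15 of 16 tested were called lower in controls and 13 of 14 in mutants. Pax6 fell by 4.35 and Nkx2-2 fell by 5.002 in controls, and Isl1, which is also known from pancreatic mesenchyme, fell by 1.43. The receptors were mixed (of all genes, 12.4% were called higher in controls and 13.5% in mutants), with 3 called higher and 3 lower of 9 tested in controls, and 2 higher and 3 lower of 10 in mutants. Ramp2 rose by 2.46 in controls and 3.73 in mutants, and Glp1r fell by 4.58 and 3.77. Among other endocrine products 2 of 4 were called lower in controls and 3 of 4 in mutants, with Gast at -3.38 and -2.83. Genes entered by their mean over both fractions, so a high non-mesenchymal level alone sufficed. In the fit within mesenchymal cells 7 granule genes, 4 regulators and 0 other endocrine products met the same minimum. The counts of lower genes are therefore not independent of this filter.

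Within the mesenchymal fraction 0 of 8 hormones were called between H19DMD mutants and controls by limma, where 0.0694% of 15856 genes were. At an unadjusted limma p under 0.05 there were 2, Gcg and Pyy, and 755 of all genes. Gcg was 14.04, 21.2, 2.74 and 5.94 FPKM in mutants and 31.1, 59.7 and 14.5 FPKM in controls, and Pyy was 6.91, 2.84, 2.06 and 4.88 FPKM in mutants and 14.6, 25.6 and 6.55 FPKM in controls. For each of them 1 mutant library reached into the control range, and the groups overlapped for all 8 hormones, while 5.39% of all genes had no overlap. The log2 differences were -1.69 ± 0.71 for Gcg and -1.60 ± 0.51 for Pyy (SE; limma adjusted p = 0.927 for both).

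Ins1 was 33.0, 15.96, 16.8 and 15.98 FPKM in mesenchymal mutants and 33.0, 70.3 and 8.63 FPKM in controls. Control library 2 was the highest of the 7 for Ins1, Gcg, Sst, Ppy, Pyy and Iapp. The remaining hormones were near the floor of the data, with Sst at 1.33 to 11.8 FPKM, Ghrl at 1.46 to 4.94, Ppy at 0 to 9.42 and Iapp at 0 to 10.6. Ppy was listed at 0 in control library 3 and Iapp in mutant library 4. For scale, 1 read of Sst was estimated to be worth 0.405 to 0.755 FPKM in these libraries. The Ins2 to Ins1 ratio was 1.11, 4.62, 0.990 and 0.454 in mutants and 1.49, 0.881 and 2.88 in controls (exact permutation p = 0.771). Against non-mesenchymal cells the ratio had an exact permutation p of 0.8 in controls, where 3 against 3 libraries allow none below 0.1. In mutants the log2 difference was -0.22 (exact permutation p = 0.686). Without mesenchymal mutant library 2 that difference was -0.83 (exact permutation p = 0.0286, unadjusted).

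Of the 28 hormone pairs, 3 had ratios in mesenchymal cells that did not overlap between genotypes. Ins1 relative to Pyy was higher in mutants, and Gcg relative to Sst and to Ppy was lower. The levels behind these ratios were low, no test was made of the pairs, and the share of 5.39% above is for levels of single genes, so nothing is read from this count.

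Whether the effect of the H19DMD deletion differed between fractions was tested as an interaction of fraction and genotype. Of the 8 hormones 0 were called by limma, and 0.0117% of 17105 genes were. The median of all genes was -0.11 on the log2 scale, and that of the hormones -0.18 (3 above and 5 below 0). With median-ratio scaling the hormone median was -0.0568 (4 above, 4 below), and with protein-coding genes scaled to their total it was -0.31 (2 above, 6 below), where that of all genes was -0.25. Pyy had the largest estimate of the 8, -1.44 ± 0.56 (SE; limma adjusted p = 0.755, unadjusted p = 0.0241). For Ins1, Ins2 and Gcg the interaction was 0.43 ± 0.75, 0.08 ± 0.85 and -0.73 ± 0.84 (SE), so the intervals were wide, -1.21 to 2.06 for Ins1. With any 1 library left out the estimate ran from -1.23 to -0.25 for Gcg, and from -0.87 to -0.31 for Ghrl.

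The genes whose levels followed each hormone most closely were sought over the non-mesenchymal libraries, 7 in each table, among 9613 genes that averaged 5 FPKM or more in both tables. Likeness was the smaller of the 2 Pearson correlations of log2(FPKM + 1). These are descriptions over few libraries that share depth, cell make-up and genotype. The genes named are the highest of a search over 9613 genes. No null was made for such a maximum, so a high r alone does not mark a companion of a hormone. The gene most like Ins1 was Ins2, with r of 0.91 in the Igf2 table and 0.96 in the H19DMD table, and Iapp ranked 6 for Ins1 (0.77 and 0.83) and 3 for Ins2 (0.79 and 0.79). The second gene for Ins1 was Ahctf1 (0.84 and 0.82).

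Gcg followed the insulins in the H19DMD table (r of 0.91 with Ins1 and 0.91 with Ins2) but less in the Igf2 table (0.31 with each). The genes most like Gcg were Sin3a (0.94 and 0.92) and Gpx3 (0.90 and 0.95). Ppy and Pyy were close in the Igf2 table (0.90) and not in the H19DMD table (0.32). Those most like Sst were Cradd and Ep300, for Ppy Zfp346 and Snrnp35, for Pyy Socs3 and Xpnpep1, for Iapp Mapkap1 and Zfp933, and for Ghrl Ncaph2 and Psma7. Ghrl correlated negatively with Ins1 in both tables (-0.13 and -0.43).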

How the data were processed

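RNA was amplified from 2 ng of total RNA and sequenced as single reads of 50 bases, per the labels' protocols. The authors deposited 1 table of FPKM values per model, per the file headers. The submitters' processing notes name TopHat2 2.0.8, Cufflinks 2.2.1 and GRCm38; annotation and use of strand are not given in the sources used here. Of 31 samples 21 had values used here, 10 were not analysed here, and 8 columns of sample values were left out.

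Hormones were taken by symbol. Differences were fitted over all genes by limma (version 3.58.1, R version 4.3.3) after log2 transformation of FPKM plus 1, which understates the change of low genes. Genes averaging 1 FPKM or more across the compared libraries were kept. Tests were two-sided, within 1 table, with a variance trend. The fits were tested on simulated data. The Ins2 to Ins1 ratio was tested by exact permutation. Named by rule were all hormones, Igf2, H19 and the genes next to Ins2, at most the 3 most abundant genes of each list and the 2 genes most like each hormone. One result is not reported here. Amy2a1, Amy2a5, Ptf1a, Nkx6-1, Neurod1, Pdx1, Spp1, Ptprc and Cd52 were named after their values were seen. Npy4r and Igf2os were matched as Ppyr1 and Igf2as. Members and lists were chosen with earlier results of these data known. Alternatives changed the pseudocount, filter, scaling, variance trend, replicate block and libraries. Same-numbered libraries showed little common deviation (r of -0.05 to 0.07), and between fractions every r was above 0 (0.007 to 0.067). Correlations this small do not decide whether the numbers pair libraries, and the main fits did not pair them.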

Additional observations from a re-analysis of the deposited data

Results flagged for a closer look

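In 27 groups of 4 libraries, the levels of the 8 hormones and the ratio of Ins2 to Ins1, the most extreme library was compared with the spread of the others, and chance singles out about 1 in 20 such groups. Ins1 in the mesenchymal H19DMD mutants had library 1 apart from the others, at 33.0 FPKM against 15.96 to 16.8. Ppy in the same group had library 1 apart below the others, at 1.66 FPKM against 3.21 to 3.34. Iapp in the non-mesenchymal H19DMD mutants had library 4 apart, at 310 FPKM against 433 to 458. These levels of Ins1 and Ppy are low, and no cause was tested.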

How the results depend on the processing

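No hormone was called in the 3 mutant comparisons or the interaction, and all 8 were called between fractions, under each alternative run. Counts over all genes varied more. The Igf2 model comparison (11 genes called) gave 0 with protein-coding genes scaled to their total, the H19DMD non-mesenchymal comparison (11) gave 1, the mesenchymal comparison (11) gave 0 and the interaction (2) gave 0. The interaction gave 6 with a pseudocount of 0.1 and 6 with no filter. With the replicate number as a block, the Igf2 model comparison gave 17, though nothing shows that this number pairs these libraries. Leaving out 1 library gave 14 to 37, 14 to 34 and 13 to 27 in the 3 mutant comparisons, and 2 to 9 in the interaction; fewer libraries were then fitted, and the cause was not tested.

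Estimates near 0 changed sign. Sst went to -0.19 in the Igf2 model with protein-coding scaling, to -0.00633 in the non-mesenchymal H19DMD comparison with median-ratio scaling, and to 0.19 in the mesenchymal one with the replicate block. Ppy in mesenchymal cells was -0.12 with a pseudocount of 5. In the interaction Ins2 was -0.0675 with protein-coding scaling, and Iapp 0.0918 with a pseudocount of 5 and 0.0657 with median-ratio scaling. The mesenchymal Ins2 to Ins1 ratio differed by 0.15 with the replicate block.

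Leaving out 1 library moved Ins1 from -0.0279 to 0.91 and Sst from -0.0820 to 0.25 in the Igf2 model, and Sst from -0.33 to 0.28 in the non-mesenchymal H19DMD comparison. In mesenchymal cells the ranges were -1.27 to 0.17 for Ins1, -0.63 to 0.19 for Sst, -0.86 to 0.83 for Ppy, -0.98 to 0.54 for Iapp and -0.49 to 0.0224 for Ghrl. In the interaction they were -0.36 to 1.08 for Ins1, -0.44 to 0.61 for Ins2, -0.69 to 0.13 for Sst, -0.65 to 1.04 for Ppy and -0.62 to 0.90 for Iapp. Differences in the Ins2 to Ins1 ratio ran from -0.0838 to 0.31 (Igf2 model), -0.0340 to 0.16 and -0.90 to 0.15 (H19DMD model, non-mesenchymal and mesenchymal), and -0.28 to 0.52 and -0.83 to 0.23 between fractions in controls and mutants. Without mesenchymal mutant library 2 the last was -0.83, with an exact permutation p of 0.0286. In the non-mesenchymal H19DMD comparison Ppy ran from -0.31 to -0.0578, Pyy from -0.27 to -0.0530 and Iapp from -0.56 to -0.16. In the Igf2 model Ppy ran from 0.22 to 0.55, Pyy from 0.23 to 0.59 and Iapp from 0.17 to 0.53. The control median of the mesenchymal percentages ran from 0.322 to 0.828%, an alternative chosen after seeing the data. Low hormone levels in mesenchymal libraries and a depth that is not given and only estimated limit what can be seen there.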
